A study of Mus musculus with 8 samples.

Results

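Schwann cells wrap the axons of peripheral nerves in myelin, and malignant peripheral nerve sheath tumours are soft tissue sarcomas of that lineage. The 8 genes described here are Mbp, Pmp22, Prx, Sox10, S100b, Ncmap, Mal and Cnp, chosen as a panel for nerve sheath identity in mouse sarcomas. Each gene was read on the probe set with the highest mean over the 8 arrays among probe sets annotated with 1 gene symbol. By that rule 7 of the 8 genes were measured, among 12393 genes in all, and Prx, which encodes the periaxin scaffold of the Schwann cell membrane, was not analysed here. The 7 genes carried 20 probe sets between them.

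Messenger RNA of 8 tissues was hybridised to Affymetrix oligonucleotide arrays from biotin-labelled total RNA, and each value below is a log2 expression level unless it is called a difference. The sarcomas were primary soft tissue tumours raised by injecting an adenovirus that expresses Cre recombinase into mice with a conditional Braf allele (BrafCa) and p53 Fl/Fl. There were 4 tumours of genotype Braf Ca/Ca; p53 Fl/Fl (called Ca/Ca sarcomas 1, 2, 3 and 5) and 2 of genotype Braf Ca/+; p53 Fl/Fl (Ca/+ sarcomas 1 and 2). They were set against 1 muscle of each genotype, taken from a hind limb that bore no tumour, so the muscles carry the same conditional alleles as the tumours. The labels give neither age, sex, strain nor the cell type that took up the virus, and do not say whether each array is a separate mouse, so the p-values measure the spread between these arrays, which may in part be technical. A fit without 1 muscle, or within the arrays of 1 genotype, holds a single muscle, which is assumed to vary like the sarcomas. Its p-values and calls therefore do not measure the spread between muscles. In whole-tissue RNA, fewer cells of a type and less RNA per cell cannot be told apart. The labelled tissues were read on their own markers: all 15 muscle fibre genes were lower in the sarcomas, with list means of 6.63 to 8.85 in the 6 sarcomas and 12.74 and 12.64 in the Ca/Ca and Ca/+ muscle.

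Compact myelin is built from membrane proteins such as Pmp22 and from the cytoplasmic basic protein Mbp, which holds the inner faces of the membrane together. Sox10 is the transcription factor that neural crest cells need to become Schwann cells and that stays on in them, and S100b is the calcium-binding protein that pathologists stain for in nerve sheath tumours. Ordinary limb muscle contains myelinated motor and sensory axons, so a muscle sample holds Schwann cell RNA as well. The genes were therefore compared between sarcoma and muscle, and that comparison alone does not decide nerve sheath identity.

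None of the 7 measured genes was higher in the sarcomas than in muscle. Mal, Ncmap and S100b fell, and Mbp, Pmp22, Sox10 and Cnp did not pass limma's test with Benjamini-Hochberg adjustment over all genes (threshold 0.05). The median log2 difference of the 7 genes, sarcoma minus muscle, was -1.00, beside 0.03 over all genes. Against these 3 of 7 genes, 26.3% of all 12393 genes were called, 13.2% lower and 13.1% higher. All 6 sarcomas lay below both muscles for 4 of the 7 genes (Mbp, S100b, Ncmap and Mal), as they did for 19% of all genes, and above both for 0 of the 7, against 20%. Read probe set by probe set, 12 of the 20 probe sets fell, 8 did not pass and 0 rose, against 12.2% of 20380 probe sets called lower. For 13 of the 20 all sarcomas lay below both muscles, against 17.7%. Probe sets of 1 gene are not independent readings: Mbp alone supplied 6 of the 12 and 7 of the 13. It also supplied much of each probe set count in the next sentence. The count of 12 was 9 without the Ca/Ca muscle (9.69% of all probe sets called lower), 13 without the Ca/+ muscle (6.04%), 10 in the Ca/Ca arrays alone (3.79%) and 6 in the Ca/+ arrays alone (5.74%). The count of genes that fell moved with the arrays used and with the choice of probe set. It was 1 of 7 without the Ca/Ca muscle (10.4% of all genes called lower), 4 of 7 without the Ca/+ muscle (6.64%), 3 of 7 in the Ca/Ca arrays alone (4.12%) and 1 of 7 in the Ca/+ arrays alone (5.61%). It was 5 of 7 with the mean of each gene's probe sets (13.2%) and 5 of 7 with the probe set of highest variance (14.1%). The mean of the 7 genes was 5.98 to 6.17 in the 6 sarcomas, against 7.57 in Ca/Ca muscle and 6.72 in Ca/+ muscle.

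**Figure D1:**
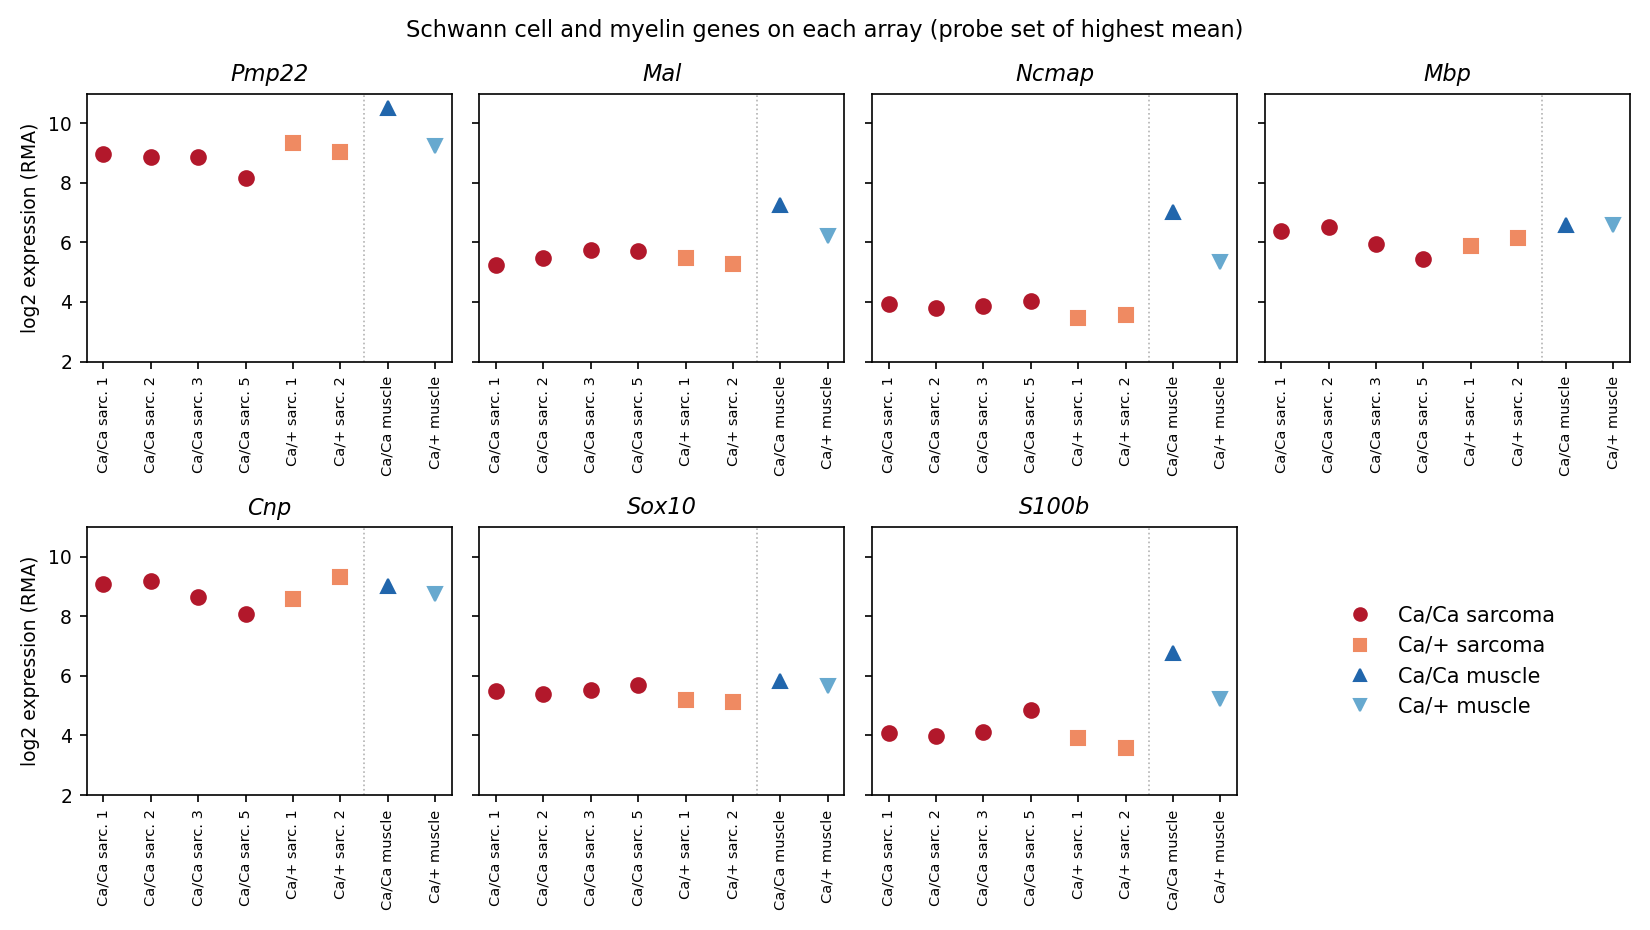
Log2 expression level of the 7 measured genes, 1 panel a gene, with the 4 Ca/Ca sarcomas and 2 Ca/+ sarcomas left of the 2 muscles and 1 point an array. All sarcomas lie below both muscles for Mbp, S100b, Ncmap and Mal, and the Ca/Ca muscle (10.52 for Pmp22, 7.02 for Ncmap) stands above the Ca/+ muscle (9.23 and 5.33) for several genes.

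Among the membrane proteins, Ncmap fell whichever array was left out. Ncmap encodes a small membrane protein of non-compact peripheral myelin. It had levels of 3.94, 3.81, 3.88 and 4.05 in Ca/Ca sarcomas 1, 2, 3 and 5 and of 3.48 and 3.57 in Ca/+ sarcomas 1 and 2, against 7.02 in Ca/Ca muscle and 5.33 in Ca/+ muscle. Every sarcoma was below both muscles, and the sarcomas differed among themselves by less than the muscles did. The mean was 3.79 ± 0.22 in sarcomas (SD, n = 6) and 6.17 ± 1.20 in muscles (SD, n = 2), a difference of -2.39 (SE 0.38, adjusted p = 0.00294). The call held with any 1 of the 8 arrays left out, though with 1 muscle left the spread is that of the sarcomas alone. Without the Ca/Ca muscle, which was the higher of the pair, the difference was -1.54, and without the Ca/+ muscle it was -3.23. The sarcoma levels lay within the range of 31 olfactory receptor genes read as a background of genes that these tissues should not express (1.78 to 4.35, median 2.92), so the difference is read as a lower bound.

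Mal encodes a proteolipid of lipid-rich membrane domains that is found in compact myelin and in epithelial cells. Its levels were 5.24, 5.47, 5.74 and 5.70 in Ca/Ca sarcomas 1, 2, 3 and 5 and 5.49 and 5.27 in Ca/+ sarcomas 1 and 2, against 7.25 in Ca/Ca muscle and 6.22 in Ca/+ muscle. The groups did not overlap. Sarcomas averaged 5.48 ± 0.21 (SD, n = 6) and muscles 6.73 ± 0.73 (SD, n = 2), and the difference of -1.25 (SE 0.26) passed with an adjusted p of 0.00988. It did not pass without the Ca/Ca muscle (-0.74, adjusted p = 0.0687). The other Mal probe set, 1417275_at, read 2.54, 2.71, 3.62 and 3.77 in the Ca/Ca sarcomas and 2.40 and 3.15 in the Ca/+ sarcomas, against 7.41 in Ca/Ca muscle and 5.11 in Ca/+ muscle. Tested on its own, it fell by 3.22 (SE 0.59, adjusted p = 0.00524 over all 20380 probe sets) and still passed without the Ca/Ca muscle (-2.07, adjusted p = 0.0330), but not in the Ca/+ arrays alone (adjusted p = 0.0509). All 6 sarcoma readings of this probe set lie in the olfactory receptor range, so its difference is a lower bound as well.

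Pmp22, the compact myelin protein whose duplication causes the human neuropathy Charcot-Marie-Tooth disease and which other tissues also make, overlapped between the tissues. Its levels were 8.98, 8.86, 8.88 and 8.16 in Ca/Ca sarcomas 1, 2, 3 and 5 and 9.32 and 9.03 in Ca/+ sarcomas 1 and 2, against 10.52 in Ca/Ca muscle and 9.23 in Ca/+ muscle. The Ca/+ muscle lay among the sarcomas, and Ca/+ sarcoma 1 was above it. Sarcomas averaged 8.87 ± 0.39 (SD, n = 6) and muscles 9.87 ± 0.91 (SD, n = 2), a difference of -1.00 (SE 0.37, adjusted p = 0.0796). That value is set by which muscle is used. Without the Ca/+ muscle the difference was -1.64 and passed (adjusted p = 0.0369), and without the Ca/Ca muscle it was -0.36 (adjusted p = 0.584). It also passed after cyclic loess scaling (adjusted p = 0.0358) and after centring on housekeeping genes (0.0274) or on ribosomal protein genes (0.0438).

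The answer for Mbp depended on the probe set, as did that for Sox10, described below. On 1425264_s_at, the probe set of highest mean, its levels were 6.39, 6.50, 5.94 and 5.44 in Ca/Ca sarcomas 1, 2, 3 and 5 and 5.89 and 6.14 in Ca/+ sarcomas 1 and 2, against 6.59 in each of the 2 muscles. All sarcomas were below the muscles, but by a difference of only -0.54 (SE 0.26, adjusted p = 0.174), from 6.05 ± 0.38 in sarcomas (SD, n = 6) and 6.59 in muscles (n = 2). A second probe set, 1425263_a_at, overlapped between the tissues and gave -0.32 (adjusted p = 0.438).

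The other 6 Mbp probe sets all fell, with differences of -5.75 to -2.11 and adjusted p-values of 0.000191 to 0.00169 over all probe sets. On 1433532_a_at the levels were 4.31, 5.52, 3.33 and 3.79 in Ca/Ca sarcomas 1, 2, 3 and 5 and 4.10 and 3.71 in Ca/+ sarcomas 1 and 2, against 10.84 in Ca/Ca muscle and 8.93 in Ca/+ muscle. The gap there between the highest sarcoma and the lower muscle was larger than the spread within either tissue. On 1456228_x_at the sarcomas read 2.21 to 3.59, against 8.84 in Ca/Ca muscle and 7.01 in Ca/+ muscle. Across the 6 probe sets the sarcomas read 1.61 to 5.52 and the muscles 5.09 to 10.84. All 6 calls held with any 1 of the 8 arrays left out, with adjusted p-values of at most 0.0114. In the Ca/+ arrays alone 5 of the 6 held, and 1451961_a_at did not (adjusted p = 0.0717). Most of the sarcoma readings were within the olfactory receptor range, so these differences too are lower bounds. With the mean of all its probe sets Mbp passed at -3.30 (adjusted p = 0.000339), and with its probe set of highest variance at -5.75. The Mbp locus is known to give the classic myelin basic proteins and, from an upstream start, the longer golli proteins, which are made in other cells too. Which transcripts each probe set reads is not given in the sources used here, and the cause of the disagreement was not tested.

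**Figure D2:**
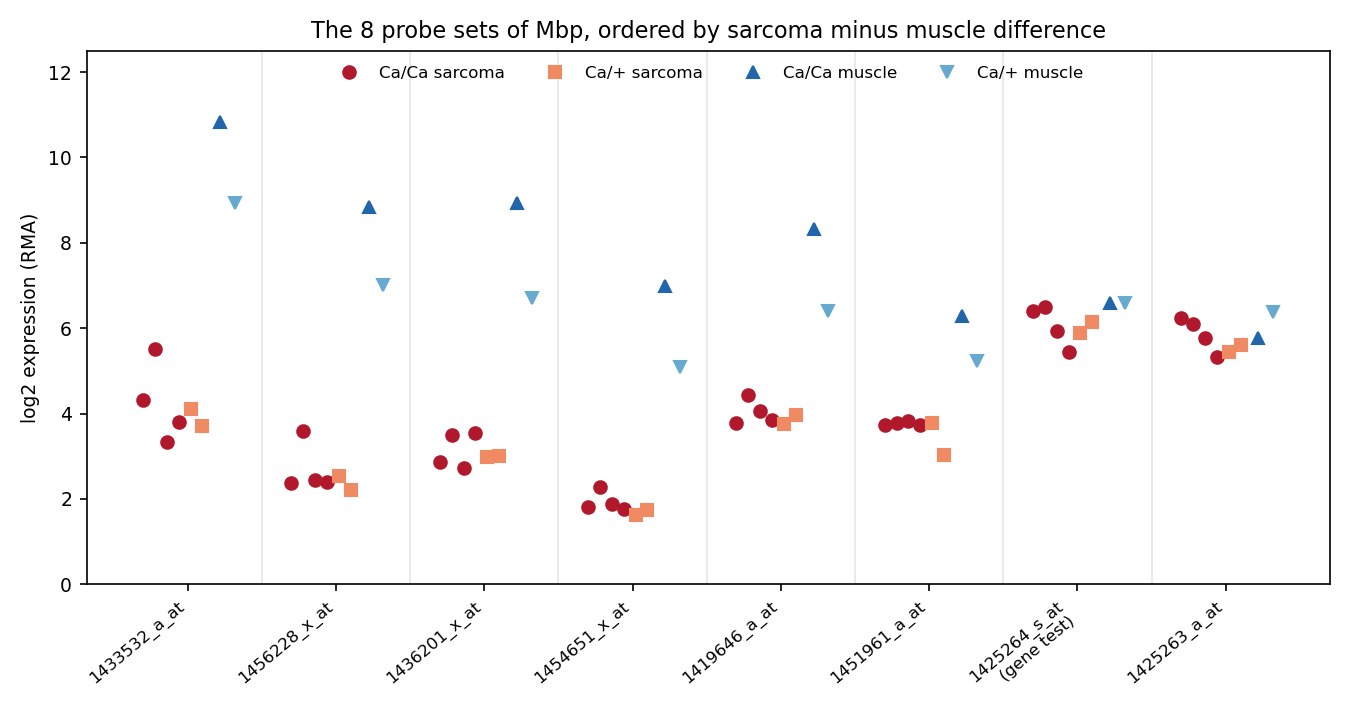
Log2 expression level of the 8 Mbp probe sets in each array, with sarcomas left of muscles. The 6 probe sets that fell read 1.61 to 5.52 in the sarcomas and 5.09 to 10.84 in the muscles, whereas 1425264_s_at reads 5.44 to 6.50 in the sarcomas and 6.59 in both muscles.

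Cnp, an enzyme of the cytoplasmic channels of myelin that many other cells also make, differed least of the 7 genes. Its levels were 9.08, 9.18, 8.65 and 8.09 in Ca/Ca sarcomas 1, 2, 3 and 5 and 8.60 and 9.32 in Ca/+ sarcomas 1 and 2, against 9.01 in Ca/Ca muscle and 8.76 in Ca/+ muscle. The sarcomas spanned both muscles. The difference was -0.07 (SE 0.31, adjusted p = 0.903), and its 3 probe sets gave differences of 0.19, -0.07 and -0.10, none of which passed. Its sign turned under 6 alternatives: array weights, the mean of its probe sets, leaving out the Ca/Ca muscle or Ca/Ca sarcoma 5, hybridization control centring (0.19) and the Ca/+ arrays alone (0.20).

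The regulator of the lineage, Sox10, was not called higher in the sarcomas on any of its probe sets. On 1424985_a_at its levels were 5.48, 5.38, 5.53 and 5.69 in Ca/Ca sarcomas 1, 2, 3 and 5 and 5.18 and 5.11 in Ca/+ sarcomas 1 and 2, against 5.83 in Ca/Ca muscle and 5.68 in Ca/+ muscle. The highest sarcoma and the lower muscle differed by hundredths of a log2 unit. The means were 5.40 ± 0.22 in sarcomas (SD, n = 6) and 5.75 ± 0.11 in muscles (SD, n = 2). The test was not passed (difference -0.36, SE 0.17, adjusted p = 0.173). Sox10 passed after ribosomal protein centring (-0.60, adjusted p = 0.0448) and with the mean of its probe sets (-0.51, adjusted p = 0.0268). With its probe set of highest variance it passed at -0.93 (adjusted p = 0.00349). Another Sox10 probe set, 1451689_a_at, read 5.08, 5.22, 5.38 and 5.30 in the Ca/Ca sarcomas and 5.04 and 4.96 in the Ca/+ sarcomas, against 6.23 in Ca/Ca muscle and 5.96 in Ca/+ muscle. There every sarcoma was below both muscles, and it fell by 0.93 (SE 0.15, adjusted p = 0.00324), also with any 1 array left out. That call did not hold after hybridization control centring (adjusted p = 0.0887) or within the Ca/Ca arrays (0.0585) or the Ca/+ arrays (0.0725). The third Sox10 probe set, 1425369_a_at, gave -0.24 (adjusted p = 0.314). There the tissues overlapped, and Ca/Ca sarcoma 5 (4.29) lay above the Ca/Ca muscle (4.24) and the Ca/+ muscle (4.19). All readings of this probe set in both tissues lie in the olfactory receptor range, so little is read from their order.

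S100b had levels of 4.09, 3.98, 4.13 and 4.85 in Ca/Ca sarcomas 1, 2, 3 and 5 and of 3.93 and 3.59 in Ca/+ sarcomas 1 and 2, against 6.76 in Ca/Ca muscle and 5.21 in Ca/+ muscle. Every sarcoma was below both muscles, and Ca/Ca sarcoma 5 was the highest of the tumours. Sarcomas averaged 4.09 ± 0.42 (SD, n = 6) and muscles 5.99 ± 1.09 (SD, n = 2), a difference of -1.89 (SE 0.42, adjusted p = 0.0119). All sarcomas but Ca/Ca sarcoma 5 read within the olfactory receptor range, so this too is a lower bound. Without the Ca/Ca muscle it was -1.12 and did not pass (adjusted p = 0.0943). The second S100b probe set, 1419383_at, fell by 1.47 (SE 0.39, adjusted p = 0.0247), with sarcomas at 3.46 to 4.93 and the muscles at 5.91 (Ca/Ca) and 4.96 (Ca/+). Its sarcoma mean, 3.96, lay in the olfactory receptor range, its highest sarcoma lay just under the lower muscle, and the call did not hold without the Ca/Ca muscle (-1.00, adjusted p = 0.210).

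**Figure D3:**
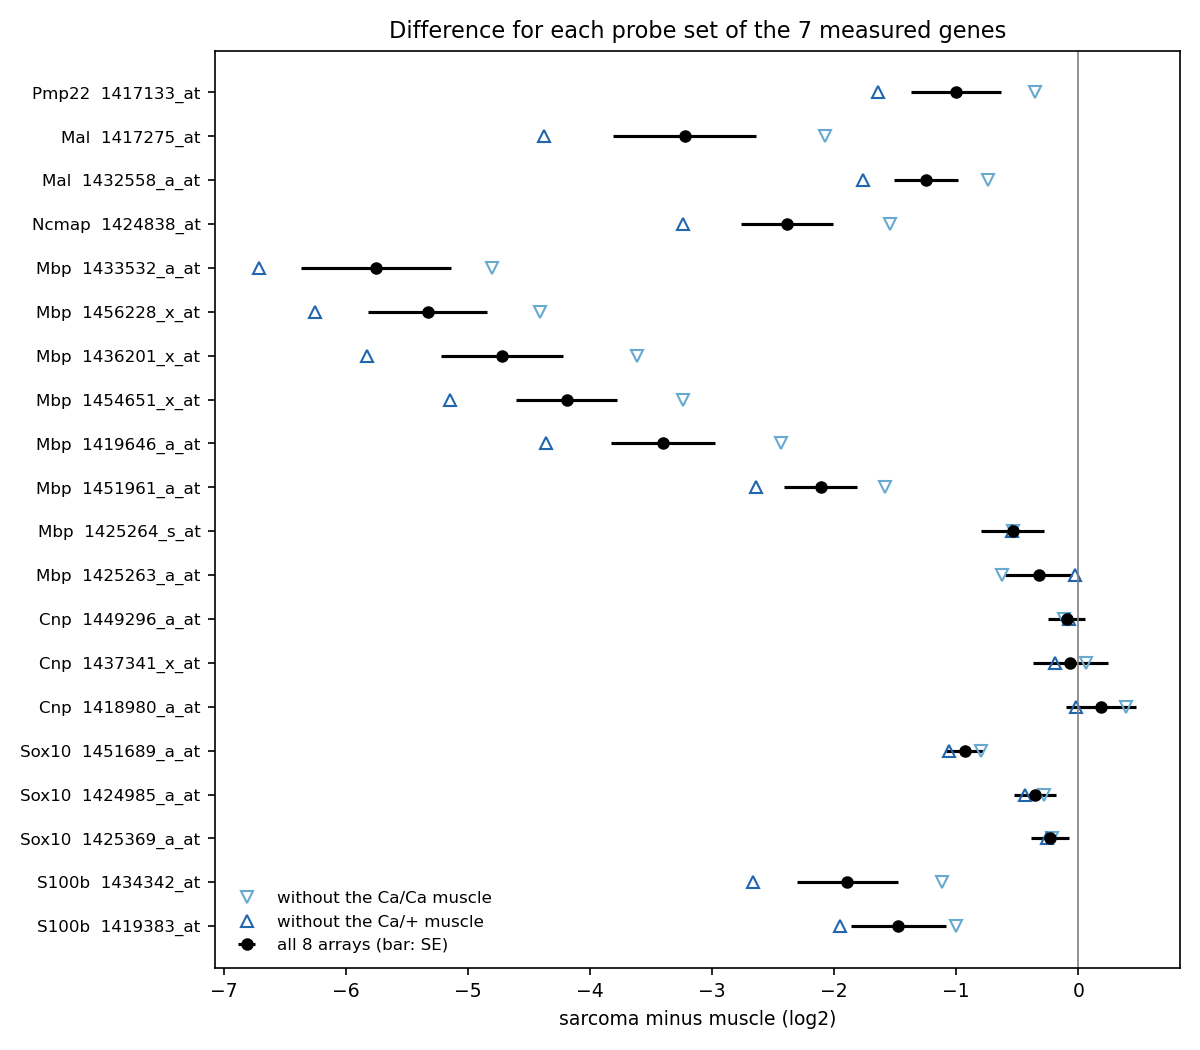
Difference in log2 level, sarcoma minus muscle, for the 20 probe sets of the 7 genes over all arrays, with its standard error as a bar. Open triangles give the difference without the Ca/Ca muscle (pointing down) and without the Ca/+ muscle (pointing up). The 12 probe sets that fell belong to Mbp (6), Mal (2), S100b (2), Ncmap (1) and Sox10 (1), and the 3 Cnp probe sets lie near 0.

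Ncmap, Mal and S100b moved together in the gene test and Cnp did not, so their promoters are shown, from RefSeq on GRCm38.p6, as 250 bases before to 50 after a start that RefSeq annotates. Capitals mark matches on either strand to 2 SOX motifs (ACAAAG and ACAATG, which cannot share a site) and to an EGR motif (GCGTGGG). RefSeq windows were read for Pmp22, Prx, S100b, Ncmap, Mal and Cnp. No window of Mbp or Sox10 was read here, which does not show that RefSeq holds none for them. Of the 4 shown, S100b (chr10:76253586-76253885, plus strand) and Mal (chr2:127656646-127656945, minus strand) hold none of the 3, and Ncmap (chr4:135385623-135385922, minus strand) holds GCGTGGG at -35. Cnp (chr11:100574689-100574988, plus strand) holds ACAAAG at -167 and GCGTGGG at 20.
Ncmap: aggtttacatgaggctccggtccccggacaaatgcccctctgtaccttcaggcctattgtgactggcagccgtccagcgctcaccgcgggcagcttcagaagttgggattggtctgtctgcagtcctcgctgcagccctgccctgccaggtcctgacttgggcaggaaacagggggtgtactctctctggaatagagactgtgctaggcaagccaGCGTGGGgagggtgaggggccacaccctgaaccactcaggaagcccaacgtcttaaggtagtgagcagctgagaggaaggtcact
Mal: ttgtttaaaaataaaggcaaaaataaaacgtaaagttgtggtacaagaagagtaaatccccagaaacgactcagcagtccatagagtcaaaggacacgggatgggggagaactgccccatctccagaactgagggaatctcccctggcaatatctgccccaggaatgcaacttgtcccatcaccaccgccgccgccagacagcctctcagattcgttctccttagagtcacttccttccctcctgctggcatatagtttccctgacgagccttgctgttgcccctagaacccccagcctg
S100b: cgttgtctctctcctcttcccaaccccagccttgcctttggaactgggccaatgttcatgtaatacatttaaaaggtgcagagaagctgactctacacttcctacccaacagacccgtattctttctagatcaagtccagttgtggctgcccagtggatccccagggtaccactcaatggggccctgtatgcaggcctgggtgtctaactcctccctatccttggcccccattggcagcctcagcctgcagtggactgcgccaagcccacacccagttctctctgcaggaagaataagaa
Cnp: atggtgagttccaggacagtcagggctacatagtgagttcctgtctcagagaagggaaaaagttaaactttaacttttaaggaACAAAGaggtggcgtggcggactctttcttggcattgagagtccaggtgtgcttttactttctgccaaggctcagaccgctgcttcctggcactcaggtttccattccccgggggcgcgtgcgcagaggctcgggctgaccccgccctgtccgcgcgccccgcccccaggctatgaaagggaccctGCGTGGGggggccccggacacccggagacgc
Over all 32851 promoter windows of this length, 18.7% hold ACAAAG, 12.6% ACAATG and 5.04% GCGTGGG. A match is a run of letters and not a shown site, and the window of Ncmap shown is 1 of its 2 in the table. The other, at chr4:135398178-135398477 on the minus strand, holds none of the 3 motifs. That other window spans the upstream end of the gene (135398240), and the window shown lies inside the gene. The Prx window holds GCGTGGG at -161, and the 4 Pmp22 windows hold none of the 3.

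The 2 muscles differed from each other for most of these genes, and each is 1 array, so no test was made. The Ca/Ca muscle exceeded the Ca/+ muscle by 1.69 for Ncmap, 1.55 for S100b, 1.29 for Pmp22 and 1.03 for Mal, and by 0.25 for Cnp, 0.16 for Sox10 and 0.00 for Mbp on its highest probe set. It exceeded it by 1.06 to 2.22 on the 6 Mbp probe sets that fell. A difference of at least 2-fold (1 log2 unit) in that direction was met by 4.49% of all genes and 3.68% of all probe sets, and in the other direction by 2.53% of all genes. Several other lists also differed between the muscles. The list means were 9.02 and 10.67 for adipocyte genes, 9.62 and 8.20 for macrophage genes, 10.50 and 9.51 for fibroblast genes and 5.02 and 3.72 for axon genes, in the Ca/Ca and Ca/+ muscle in that order. Eif2s3y, a gene of the Y chromosome, read 7.65 in Ca/+ muscle and 2.05 to 2.32 in the other 7 arrays. The part of tissue make-up or of sex in the muscle differences was not tested.

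Set against the muscle of its own genotype, the 7 genes gave these differences. The mean difference from the own muscle was -3.10 in Ca/Ca and -1.80 in Ca/+ for Ncmap, -2.50 and -1.45 for S100b, -1.80 and -0.06 for Pmp22, and -1.71 and -0.84 for Mal. It was -0.52 and -0.57 for Mbp, -0.31 and -0.53 for Sox10 and -0.26 and 0.20 for Cnp, again with Ca/Ca before Ca/+. The test of that difference between genotypes, an interaction term in limma, passed for 0 of the 7 genes, with adjusted p-values of 0.286 for Ncmap (-1.30), 0.528 for Pmp22 (-1.74), 0.692 for Mal (-0.87) and 0.775 for S100b (-1.04). At an unadjusted p under 0.05 it passed for Pmp22 and Ncmap, and for 895 of all genes. Over all genes the term passed for 1 gene, Eif2s3y (0.00807%). With 1 muscle a genotype and 4 residual degrees of freedom, each lone muscle is assumed to vary like the sarcomas.

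Among the tumours themselves, none of the 7 genes passed the test of Ca/Ca against Ca/+ sarcomas. The limma test between them passed for 0 of 12393 genes (971 at an unadjusted p under 0.05, Sox10 and Ncmap among them). The difference, Ca/Ca minus Ca/+, was 0.39 for Ncmap (SE 0.13, adjusted p = 0.618), 0.38 for Sox10 (SE 0.14, adjusted p = 0.625), 0.50 for S100b (SE 0.28, adjusted p = 0.682) and -0.46 for Pmp22 (SE 0.26, adjusted p = 0.690). All 4 Ca/Ca sarcomas were above both Ca/+ sarcomas for Sox10, S100b and Ncmap, as for 9.68% of all genes, and below both for Pmp22, as for 11.3%. The Ncmap and most S100b readings behind these differences lie in the olfactory receptor range. For Mal (0.16, adjusted p = 0.833), Mbp (0.05, adjusted p = 0.978) and Cnp (-0.21, adjusted p = 0.896) the genotypes overlapped.

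As a description over 6 arrays that share a genotype split and their tissue make-up, Pearson's r took both signs. It was 0.898 between Mbp (on 1425264_s_at) and Cnp, 0.594 between Sox10 and Mal, 0.581 between Pmp22 and Cnp and 0.550 between Mbp and Pmp22. Pmp22 gave -0.805 with Sox10 and -0.504 with Mal. Cnp gave -0.784 with Mal and -0.619 with Sox10, and Mbp gave -0.668 with Mal and -0.382 with Sox10. S100b gave 0.892 with Sox10, 0.781 with Ncmap and 0.639 with Mal, and -0.859 with Pmp22, -0.848 with Cnp and -0.670 with Mbp. Ncmap gave 0.956 with Sox10 and 0.375 with Mal, and -0.806 with Pmp22, -0.388 with Cnp and -0.185 with Mbp. All Ncmap readings and all S100b readings but that of Ca/Ca sarcoma 5 lie in the olfactory receptor range. The r values of both genes rest mostly on such readings, and no order of arrays is read from them. On the probe sets of the gene test, Ca/Ca sarcoma 5 had the lowest Mbp, Cnp and Pmp22 and the highest Sox10 of the 6. It was also the lowest for Mbp on 1425263_a_at (5.32) and for Cnp on 1418980_a_at (6.40) and 1449296_a_at (6.21). For Sox10 it was also the highest on 1425369_a_at (4.29, within the olfactory receptor range). Other probe sets differed. Ca/Ca sarcoma 5 was the highest for Mbp on 1436201_x_at (3.55). Ca/Ca sarcoma 3 was the highest for Sox10 on 1451689_a_at (5.38, beside 5.30 in Ca/Ca sarcoma 5). The macrophage list mean was also lowest in Ca/Ca sarcoma 5, at 8.93 beside 9.58 to 10.32 in the other 5 sarcomas, and so was the lymphocyte list mean, at 4.35 beside 5.10 to 7.29. Their part in these levels was not tested.

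The genes most like each member over the 6 sarcomas, among genes above the median level, were found by r. They were Dennd4b (0.988), Laptm5 (0.986) and Cdc42se2 (0.984) for Mbp, and Rhog (0.995), Syk (0.993) and Esyt1 (0.989) for Cnp. For Pmp22 they were Ndn (0.993), Hnrnpa2b1 (0.985) and Fech (0.984), and for S100b Ivns1abp (0.9997), Plaur (0.993) and Rnf19a (0.990). Sox10 ran closest to Ggnbp2 (0.979), Mgst1 (0.978) and Sdc1 (0.972), and Ncmap to Siah1a (0.994), Sdc1 (0.986) and Rdh10 (0.980). Mal ran closest to Stx5a (0.990), Rida (0.975) and Slc30a7 (0.969). With about 6196 genes searched over 6 arrays, values this high are given only as an order, and those of Ncmap and S100b rest on readings mostly within the olfactory receptor range.

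Other genes of the pathway were read from lists by role, in the same test of sarcoma against muscle. Over all genes 13.1% were called higher and 13.2% lower. The counts of this and the later lists are to be read beside those shares. Of 18 other proteins of compact and paranodal myelin, 12 were measured, of which 3 fell, 1 rose and 8 did not pass (median difference -0.32). Cd59a, which protects membranes from complement, averaged 5.83 ± 0.24 in sarcomas (SD, n = 6) and 7.52 ± 0.44 in muscles (SD, n = 2), and fell by 1.68 (SE 0.22, adjusted p = 0.0011) with any 1 array left out as well. Gjb1, the connexin of Schwann cell gap junctions, fell by 0.63 (adjusted p = 0.0169), but not without the Ca/Ca muscle (-0.43, adjusted p = 0.149). The phosphatase gene Mtmr2 rose by 0.84 (adjusted p = 0.00903), and did not pass without the Ca/Ca muscle (adjusted p = 0.0505) or without the Ca/+ muscle (0.0801). Cldn19, a claudin of Schwann cell tight junctions, fell by 0.53 (adjusted p = 0.0340), with both tissues inside the olfactory receptor range, and kept its call in 3 of 8 fits with an array left out. It missed without the Ca/Ca muscle (adjusted p = 0.159), the Ca/+ muscle (0.155), Ca/Ca sarcoma 1 or 2, or Ca/+ sarcoma 1 (0.0510 to 0.0634).

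Of 9 enzymes of myelin lipids, 3 rose and 3 fell (median difference -0.91). Fa2h, which makes the hydroxylated fatty acids of myelin galactolipids, fell by 1.19 (adjusted p = 0.0170), but not without the Ca/Ca muscle (-0.64, adjusted p = 0.135). Elovl7, a fatty acid elongase, fell by 0.91 (adjusted p = 0.0142), and Fdft1, the squalene synthase of the sterol pathway, by 0.94 (adjusted p = 0.0113). Neither passed without the Ca/+ muscle (0.171 for Elovl7, 0.119 for Fdft1). Elovl1, which lengthens saturated fatty acids, rose by 0.97 (SE 0.14, adjusted p = 0.00193) with any 1 array left out as well. Cers2, the ceramide synthase for very long chains, rose by 0.73 (adjusted p = 0.0194) and Sgpl1, the sphingosine phosphate lyase, by 0.84 (adjusted p = 0.0116). Neither of these passed without the Ca/+ muscle (0.188 for Cers2, 0.142 for Sgpl1).

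Of 16 transcription regulators of the Schwann cell lineage, 2 rose, 0 fell and 14 did not pass (median difference 0.48). Egr2, the factor that switches on the myelin genes, had levels of 6.84, 6.06, 5.87 and 5.51 in Ca/Ca sarcomas 1, 2, 3 and 5 and 4.92 and 5.32 in Ca/+ sarcomas 1 and 2, against 6.65 in Ca/Ca muscle and 5.67 in Ca/+ muscle. The sarcomas spanned the muscles, with a difference of -0.41 (SE 0.47, adjusted p = 0.582), and the sign turned without the Ca/Ca muscle (0.08). Nab2, a partner of Egr2, rose by 1.96 (adjusted p = 0.0152), but not without the Ca/+ muscle (1.23, adjusted p = 0.182). The histone deacetylase Hdac1 rose by 0.71 (adjusted p = 0.00651), but not without the Ca/+ muscle (adjusted p = 0.0525).

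Of 17 axon to Schwann cell signals and receptors, 15 were measured, of which 6 fell and 1 rose (median difference -0.82). Cadm3, an adhesion molecule between axon and Schwann cell, averaged 5.34 ± 0.13 in sarcomas (SD, n = 6) and 6.72 ± 0.06 in muscles (SD, n = 2), and fell by 1.38 (SE 0.13, adjusted p = 0.000239). Dag1, the dystroglycan that binds laminin on Schwann cells and on muscle fibres, fell by 1.53 (SE 0.23, adjusted p = 0.00214). Both held with any 1 array left out. Lama2, the laminin chain of both basal laminae, fell by 1.12 (adjusted p = 0.00619), though not without the Ca/+ muscle (-0.95, adjusted p = 0.0821). Ngfr, the low-affinity neurotrophin receptor, fell by 1.38 (adjusted p = 0.0328), and by 0.48 without the Ca/Ca muscle (adjusted p = 0.197). It also missed without Ca/Ca sarcoma 1 or either Ca/+ sarcoma (adjusted p = 0.0565 to 0.0633). Erbb3, the neuregulin receptor that Schwann cells need to survive, had a difference of -0.88 (adjusted p = 0.0452) that held in 1 of 8 fits with an array left out and was -0.36 without the Ca/Ca muscle (adjusted p = 0.385). With any 1 sarcoma left out its adjusted p was 0.0555 to 0.0757. Lgi4, a secreted ligand for myelination, fell by 0.82 (adjusted p = 0.0324) in the full set of arrays and kept its call in 3 of 8 such fits (without the Ca/Ca muscle -0.52, adjusted p = 0.258). It also missed without the Ca/+ muscle (adjusted p = 0.0513), Ca/Ca sarcoma 1 or either Ca/+ sarcoma (0.0508 to 0.0607). The integrin Itgb1 rose by 0.77 (adjusted p = 0.0446) and kept its call in 1 of 8 (without the Ca/+ muscle 0.53, adjusted p = 0.356). The exception was the fit without Ca/Ca sarcoma 3, and the other fits gave adjusted p-values of 0.0532 to 0.0663 without a sarcoma and 0.0580 without the Ca/Ca muscle.

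**Figure D4:**
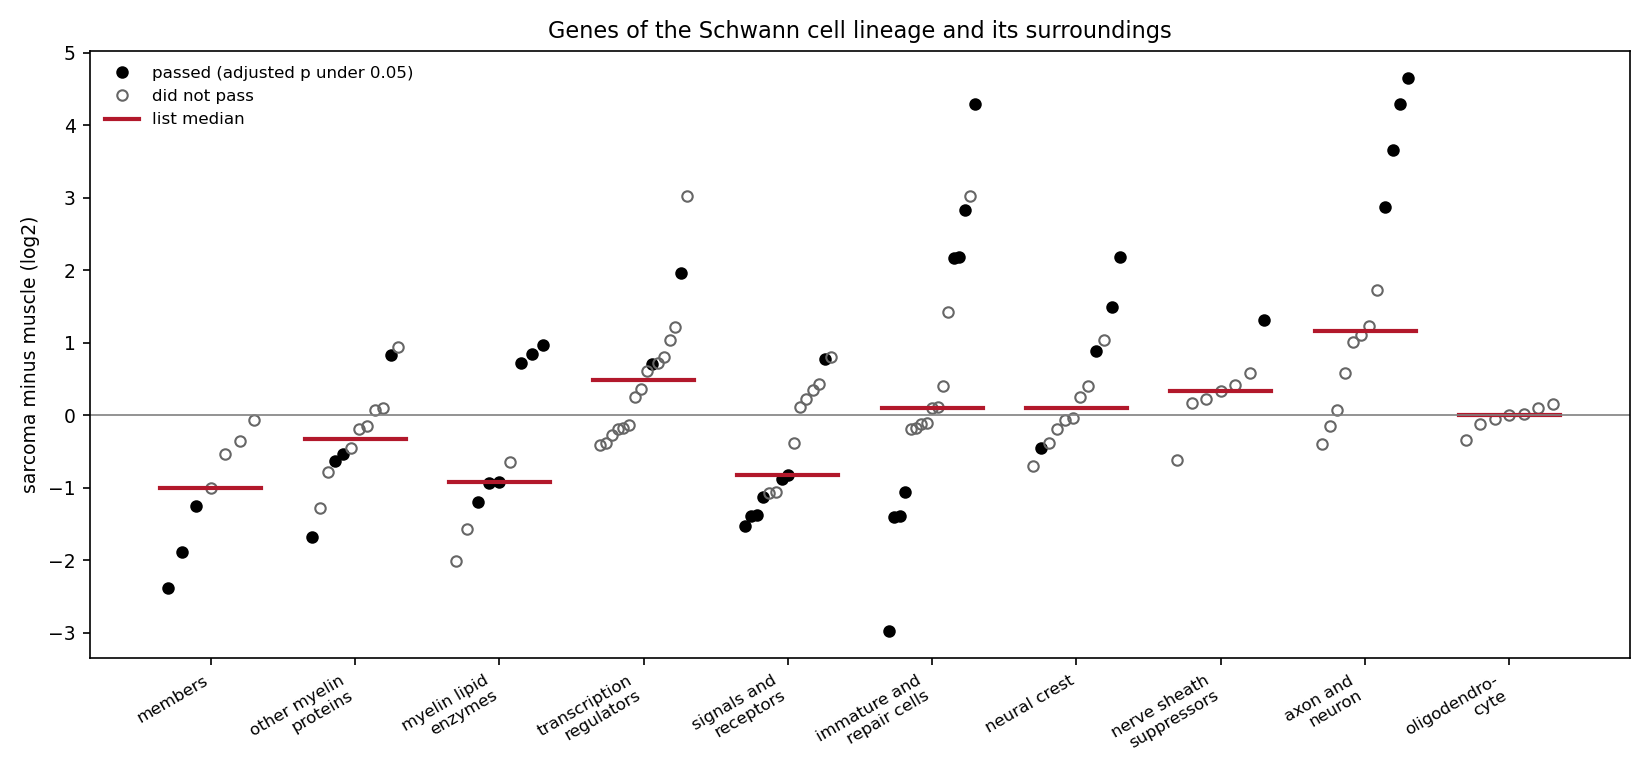
Difference in log2 level, sarcoma minus muscle, of each measured gene in the lists of Schwann cell biology, with genes that passed marked and the list median as a line. The myelin lists hold genes on both sides of 0, and the signal and receptor list has 6 genes that fell and 1 that rose.

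Genes of immature and repair Schwann cells went both ways. Of 18 genes 17 were measured, of which 4 rose and 4 fell (median difference 0.11). Bdnf, a neurotrophin of repair Schwann cells, averaged 7.24 ± 0.33 in sarcomas (SD, n = 6) and 5.06 ± 1.00 in muscles (SD, n = 2), and rose by 2.19 (SE 0.37, adjusted p = 0.00367). Gap43, a growth-associated protein of axons and of Schwann cells without myelin, rose by 4.30 (SE 1.03, adjusted p = 0.0168), and did not pass without the Ca/Ca muscle (adjusted p = 0.0585) or without the Ca/+ muscle (0.148). Cdh2, the N-cadherin, rose by 2.17 (adjusted p = 0.00674), but not without the Ca/+ muscle (1.89, adjusted p = 0.0854). Ncam1, named because it completes the 4 although it lies outside the naming rule, rose by 2.84 (adjusted p = 0.0367) and by 1.73 without the Ca/+ muscle (adjusted p = 0.347). It also missed without Ca/Ca sarcoma 1 or 2 or either Ca/+ sarcoma (adjusted p = 0.0514 to 0.0662). Plekhb1, a membrane-associated protein, fell by 2.97 (SE 0.36, adjusted p = 0.000808) with any 1 array left out as well. The adhesion molecule L1cam fell by 1.41 (adjusted p = 0.00986), though not without the Ca/Ca muscle (-1.11, adjusted p = 0.0878), and the sodium channel Scn7a by 1.06 (adjusted p = 0.00673), though not without the Ca/+ muscle (-0.78, adjusted p = 0.0932). Ngfr, described above, was the other gene of this list that fell.

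Of 12 neural crest genes, 3 rose and 1 fell (median difference 0.11). Twist1, a mesenchymal transcription factor, rose by 2.18 (adjusted p = 0.00651), but not without the Ca/+ muscle (2.05, adjusted p = 0.0728). Sox9, which also drives cartilage, rose by 1.50 (adjusted p = 0.0361) and Snai2 by 0.89 (adjusted p = 0.0453), and without the Ca/+ muscle the differences were 0.63 (adjusted p = 0.366) for Sox9 and 0.44 (adjusted p = 0.431) for Snai2. Sox9 also missed without Ca/Ca sarcoma 1 or 2 or either Ca/+ sarcoma (adjusted p = 0.0559 to 0.0673), and Snai2 without any 1 sarcoma except Ca/Ca sarcoma 2 (adjusted p = 0.0519 to 0.0805). Pax3 fell by 0.45 (adjusted p = 0.0280), within the olfactory receptor range in both tissues, and did not pass without the Ca/+ muscle (adjusted p = 0.267) or without Ca/+ sarcoma 2 (0.0503).

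Nf1 and Nf2, suppressor genes whose loss starts nerve sheath tumours, did not pass the test. Nf1, which encodes the Ras inhibitor neurofibromin, had levels of 5.83, 5.75, 4.91 and 5.85 in Ca/Ca sarcomas 1, 2, 3 and 5 and 6.02 and 5.72 in Ca/+ sarcomas 1 and 2, against 5.58 in Ca/Ca muscle and 5.35 in Ca/+ muscle. Only Ca/Ca sarcoma 3 lay below both muscles, and the difference was 0.22 (SE 0.27, adjusted p = 0.603). Nf2, the merlin gene, read 7.10, 7.09, 6.61 and 7.26 in Ca/Ca sarcomas 1, 2, 3 and 5 and 7.46 and 7.32 in Ca/+ sarcomas 1 and 2, against 7.69 in Ca/Ca muscle and 7.81 in Ca/+ muscle. It was below both muscles in every sarcoma, but the test was not passed (difference -0.61, SE 0.21, adjusted p = 0.0660). Nf2 did pass, as lower, in 6 of 23 alternatives, among them 2 of 8 fits with an array left out and 3 of 6 scalings. In the list of 7 such genes, Prkar1a, a regulatory subunit of protein kinase A, was the 1 gene that passed. It rose by 1.32 (adjusted p = 0.00424), but not without the Ca/+ muscle (1.21, adjusted p = 0.0563).

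Markers of other cell types that nerve or muscle can hold were read in the same way. Of 12 measured axon and neuron genes 4 rose and 0 fell (median difference 1.17): Gap43, the neurofilament chains Nefl (4.65, adjusted p = 0.0388) and Nefm (3.66, adjusted p = 0.0279), and the ubiquitin hydrolase Uchl1 (2.87, adjusted p = 0.00924). Without the Ca/+ muscle the last 3 were 1.69 (adjusted p = 0.368), 1.49 (adjusted p = 0.248) and 1.99 (adjusted p = 0.121). Nefl also missed without Ca/Ca sarcoma 3 or 5 or either Ca/+ sarcoma (adjusted p = 0.0537 to 0.0726), and Nefm without Ca/+ sarcoma 2 (0.0554). The axon list mean was 5.58 to 6.38 in the sarcomas, against 5.02 in Ca/Ca muscle and 3.72 in Ca/+ muscle. Of 6 perineurial genes 1 rose, the glucose transporter Slc2a1 (1.68, adjusted p = 0.0120; without the Ca/+ muscle 1.10, adjusted p = 0.148). Of 7 oligodendrocyte genes 0 passed limma's test (Mobp had an unadjusted p under 0.05), and the list mean was 3.00 to 3.18 in the sarcomas, against 3.12 in each muscle, inside the olfactory receptor range. Of 7 melanocyte genes 1 fell, the endothelin receptor gene Ednrb (-0.79, adjusted p = 0.0348), which kept its call in 2 of 8 fits. It missed without the Ca/+ muscle (-0.57, adjusted p = 0.294), the Ca/Ca muscle (0.0561), Ca/Ca sarcoma 1 or 2, or either Ca/+ sarcoma (0.0548 to 0.0642).

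Beside the 3 of 7 members that fell, all 15 muscle fibre genes, all 10 measured adipocyte genes and 10 of 12 endothelial genes fell. The adipocyte list mean was 5.16 to 6.85 in the sarcomas, against 9.02 in Ca/Ca muscle and 10.67 in Ca/+ muscle. The endothelial list mean was 5.67 to 6.56 in the sarcomas, against 7.64 in Ca/Ca muscle and 7.95 in Ca/+ muscle. Of 12 macrophage genes 2 rose and 0 fell, of 12 fibroblast genes 1 rose and 1 fell, of 10 lymphocyte genes 0 passed and of 12 epithelial genes 1 fell. Unlike the members, the adipocyte and endothelial lists were higher in Ca/+ muscle than in the Ca/Ca muscle. The part of these cell types in the levels of the myelin genes was not tested.

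**Figure D5:**
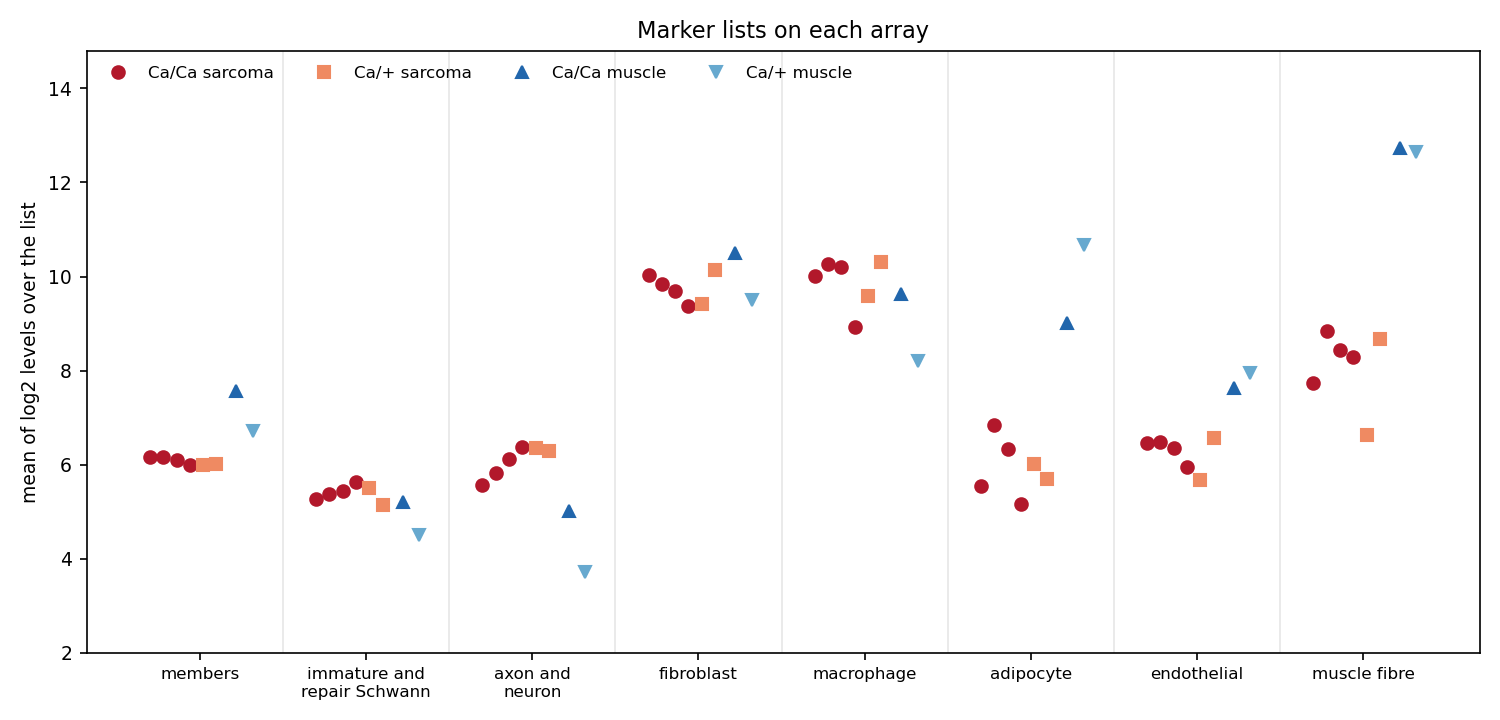
Mean log2 level of each marker list in each array, sarcomas left of muscles. Muscle fibre genes read 6.63 to 8.85 in the sarcomas and 12.74 and 12.64 in the Ca/Ca and Ca/+ muscle, and axon genes 5.58 to 6.38 in the sarcomas and 5.02 and 3.72 in the muscles.

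Among all 36 of the other genes named here that passed, 6 held with any 1 array left out (Cadm3, Dag1, Elovl1, Cd59a, Bdnf and Plekhb1), 25 did not pass without the Ca/+ muscle and 11 not without the Ca/Ca muscle. The split of all calls also moved with the scaling: 1626 genes were higher and 1630 lower as deposited, 1057 and 1918 after cyclic loess, 1023 and 2104 after housekeeping centring, 700 and 2424 after ribosomal protein centring, and 1449 and 792 after hybridization control centring. Those scalings moved the median difference of all genes to -0.18 (housekeeping), -0.22 (ribosomal protein) and 0.29 (hybridization control). Ncmap, Mal and S100b were lower and passed under each of the 6 scalings, and so did the 6 Mbp probe sets. Of the 36 other genes, Itgb1 passed under 1 of the 6 scalings, Snai2 under 2, Cers2 under 3 and Erbb3 and Sox9 under 4. The rest of the 36 passed under 5 or 6, and all 36 kept their sign under each scaling. Sarcoma means of Gjb1, Fa2h, Elovl7, Lgi4, Ngfr and Scn7a, and both muscle readings of Gap43, lie in the olfactory receptor range, so their differences are lower bounds.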

How the data were processed

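The deposited series table holds log2 expression values made by the authors with RMA (robust multi-array averaging) from Affymetrix arrays, per the submitters' processing notes, with the version, build and any further filter not given in the sources used here. It has 22690 probe sets and 8 arrays, and the values were used as deposited. GEO's platform annotation gave 20380 probe sets 1 gene symbol, 691 several and 1555 none, and 64 were control probe sets. For each of 12393 genes the probe set of highest mean over 8 arrays was tested with limma 3.58.1 (lmFit and eBayes, R 4.3.3) and Benjamini-Hochberg adjustment over all genes, at 0.05. Sarcomas were tested against muscles over all 8 arrays, the genotypes over the 6 sarcomas, and the interaction over 4 groups. Each probe set was also tested on its own, over all 20380, an alternative chosen after seeing the data. Scripts were tested on simulated data. Genes outside the panel were named where they passed, up to 6 a list by adjusted p, plus Egr2, Erbb3, Nf1 and Nf2. No genes were named from the muscle fibre, adipocyte, endothelial, macrophage, fibroblast, lymphocyte and epithelial lists. For those lists counts were given, with list means for some. The members and lists were chosen with earlier results of these data known. Promoters are RefSeq's (GRCm38.p6). The number of arrays, most of all the 2 muscles, limits the precision, and array files with raw signals or detection calls were not used here.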

Additional observations from a re-analysis of the deposited data

Results flagged for a closer look

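Pmp22 in Ca/Ca sarcoma 5 had a log2 level of 8.16, the lowest of the 4 Ca/Ca sarcomas, and stood far from the other 3, which read 8.98, 8.86 and 8.88. Its gap to the nearest of them was 0.86 of the whole range of the 4, above the critical value of 0.829. Over all 6 sarcomas the ratio was 0.606, under the critical value of 0.625. Chance alone passes such a limit in about 1 group in 20, and 14 groups were looked at.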

How the results depend on the processing

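Of the 3 genes that fell, Ncmap passed in every alternative that measured it, while Mal and S100b passed in 20 of 22 and lost the call in the Ca/+ arrays alone and when the Ca/Ca muscle was left out. The count of called members, 3 as reported, was 5 with ribosomal protein centring, with the mean of probe sets and with the probe set of highest variance, 1 in the Ca/+ arrays alone and 0 without the dimmest 50% of genes, where 2 members remained measured. It was 1 to 4 with 1 array left out. Genes called between sarcoma and muscle, 3256 as reported, numbered 601 in the Ca/Ca arrays alone, 1287 in the Ca/+ arrays alone, 5260 among single probe sets and 1195 to 3451 with 1 array left out, the lowest without the Ca/+ muscle. Between the genotypes of sarcoma the count was 1 with hybridization control centring and 0 to 1 with 1 array left out (1 without Ca/+ sarcoma 1). For the interaction it was 6 with hybridization control centring, 13 with array weights, 17 with trend and robust moderation, 0 without the dimmest 25% or 50% of genes and 0 to 1 with 1 sarcoma left out. The interaction could not be computed without either muscle.

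The sign of some differences turned. Sarcoma minus muscle, Cnp was 0.19 with hybridization control centring, 0.0079 with the mean of probe sets, 0.083 with array weights, 0.20 in the Ca/+ arrays alone and -0.19 to 0.079 with 1 array left out (0.06 without the Ca/Ca muscle). Egr2 ranged from -0.89 to 0.084 with 1 array left out, and Nf1 was -0.021 with ribosomal protein centring. Between genotypes, Mbp was -0.058 with ribosomal protein and -0.16 with hybridization control centring and -0.090 to 0.26 with 1 array left out. Mal was -0.061 with hybridization control centring, and Cnp 0.0095 with array weights and -0.57 to 0.16 with 1 array left out. For the interaction, Mbp was -0.13 with ribosomal protein centring, -1.03 with the mean of probe sets, -1.58 with the probe set of highest variance and -0.094 to 0.26 with 1 array left out, and Sox10 was -0.016 with the probe set of highest variance. Between the muscles, Mbp was -0.038 with quantile normalization and with median centring, -0.16 with housekeeping and -0.24 with hybridization control centring, and Sox10 -0.0064 and -0.086 with the last 2. The cause was not tested.

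With the tumour number as a replicate block, 0 genes passed between the genotypes, as without it (857 against 971 at an unadjusted p under 0.05), Mal was -0.025 and Cnp 0.17. The genotypes share only 2 tumour numbers, and the labels do not say that a number marks a shared animal, litter or day. The deviations of same-numbered tumours correlated at -0.19 (number 1) and 0.29 (number 2), but the deviations of the 2 Ca/+ sarcomas mirror each other, so these values do not decide whether the numbers pair the samples.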
